A study of Mus musculus with 23 samples.

Results

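RNA bound to tagged astrocyte ribosomes was compared with the RNA left behind in the same spinal cord lesions, in mice given a hydrogel with growth factors after spinal cord injury (SCI). The precipitated fraction is called HA, after the hemagglutinin tag, and the unbound fraction FT, for flow-through. The comparison holds 6 of the 23 libraries of the series, namely the 3 title numbers of this treatment that were sequenced in both fractions, 1685, 1687 and 1732. Values over libraries are given in that order throughout. Of the 9363 genes listed in HA and the 4898 listed in FT, 4781 were in both tables, and 3041 of these passed the count filter and were tested. Of the 3041, 2225 had at least 10 counts over the 3 libraries of each fraction.

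The mice were young adults carrying mGFAP-Cre and RiboTag, in which Cre driven by a mouse Gfap promoter switches on the HA tag of a ribosomal protein. The genotype field of the labels nevertheless reads wild type for the libraries. All groups had a severe crush at thoracic level 10, and the central 3 mm of the lesion was taken at day 14. The treated animals received an intraspinal hydrogel depot with growth factors at day 2, those labelled hydrogel CT a depot not labelled as holding them, and the SCI only group no depot. The series title names the growth factors as FGF and EGF, whereas headers in the count tables name BDNF and NT3 for it, which could not be settled here. Hydrogel CT (6 libraries, 3 numbers in both fractions) and SCI only (8 libraries, 4 numbers) serve below only to show where the HA minus FT difference depended on treatment.

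Astrocytes are the glial cells that buffer glutamate and potassium, supply neurons with metabolites and, after injury, enlarge and form a border around the lesion. In a RiboTag mouse, the cells in which Cre has acted carry a tagged ribosomal protein, so that messenger RNA in the course of translation can be pulled down from whole tissue with an antibody. The unbound fraction holds RNA of every other cell, together with the RNA of the tagged cells that escaped precipitation. In the lesion these other cells include microglia and infiltrating macrophages, oligodendrocytes and their progenitors, and the axons and cell bodies of neurons.

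The HA libraries held 10513353, 7939015 and 11276684 counts and the FT libraries 40367, 64336 and 144902. In every library but FT 1732 most counts were not from protein-coding genes. Yam1, a noncoding locus known to collect ribosomal RNA reads, took 67.6%, 75.7% and 74.3% of HA counts, against 44.7%, 77.7% and 13.8% of FT counts. Protein-coding genes other than Lars2, whose locus also collects ribosomal RNA reads, held 1523813, 282734 and 1055726 counts in HA, against 14649, 6443 and 115730 in FT. FT 1732 stood apart with 79.9% of its counts in these genes. Levels are given as CPM, the usual depth-scaled count, on library sizes scaled by the TMM method. A single read was worth 0.0824, 0.431 and 0.122 CPM in HA, against 4.42, 7.22 and 0.67 CPM in FT, so a low FT value rests on few reads. Intervals and limits given below cover counting error only. Ratios, intervals and limits pool the libraries by TMM-scaled size. That size was 226300, 138600 and 1492000 for FT, so FT 1732 dominates the FT side of each.

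Higher in HA were 14 of 18 astrocyte markers tested, 3 of 4 genes of metallothioneins and zinc handling, 4 of 6 markers of oligodendrocyte progenitors and 5 of 13 genes of oligodendrocytes and myelin. Lower in HA were 7 of 13 neuronal, 5 of 8 presynaptic and 6 of 13 microglial genes, with Snap25 and Syp in both the neuronal and the presynaptic list. Of the 3041 genes, 330 passed an adjusted p of 0.05 in edgeR's quasi-likelihood test with the number as a block (10.9%), 227 of them higher in HA (7.46%) and 103 lower (3.39%). In 327 of the 330, all 3 numbers differed in the direction of the call. The HA and FT libraries did not overlap at all for 659 of the genes tested (21.7%), with HA above FT in 460 (15.1%) and below it in 199 (6.54%), and for 292 of those called. Of the calls higher in HA, 74 had fewer than 10 FT counts over the 3 libraries together.

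The split between higher and lower depended on how the libraries were scaled. Higher in HA were 68.8% of the calls with TMM scaling, 56.7% with DESeq2 size factors, 48.3% in DESeq2's own test, and 1.09% with library totals alone. The median log2 difference of all genes tested was 0.35 with TMM scaling, 0.09 with DESeq2 size factors and -2.70 with library totals. A list is described below by its median and by how far that median lay from the median of all genes tested. Another scaling shifts all genes by nearly the same amount, so this distance says nothing about stability. With only the 6 libraries in the fit 73 genes were called, among them 7 of 18 astrocyte markers, 3 of 4 genes of metallothioneins and zinc handling, 1 of 6 progenitor markers, 0 of 13 genes of oligodendrocytes and myelin, 2 of 13 neuronal, 1 of 8 presynaptic and 1 of 13 microglial genes. In bulk RNA, fewer cells of a type and less RNA per cell cannot be told apart.

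**Figure D1:**
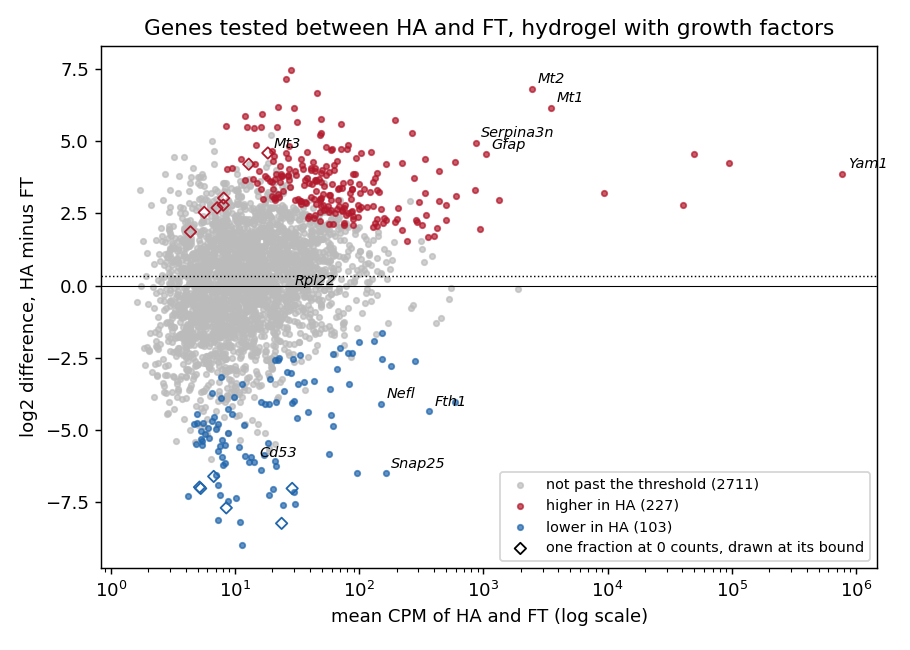
Each point is 1 of the 3041 genes tested in the hydrogel with growth factors group, with the mean CPM of both fractions on a log axis and the log2 difference of HA minus FT on the other axis. Red points are the 227 genes higher in HA and blue points the 103 lower, the dotted line is the median of all genes, 0.35, and open diamonds are genes with 1 fraction at 0 counts, drawn at their bound. With library totals in place of TMM scaling that median was -2.70.

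Of 18 astrocyte markers tested, 14 were higher in HA and none lower, with a median log2 difference of 2.91 that lay 2.56 above that of all genes tested. With library totals 2 were higher and 2 lower, and the median turned to -0.05. Their summed level ranged from 7210 to 7982 CPM over the HA libraries and from 326 to 1396 CPM over the FT libraries. The list is the one on which the method rests, since Gfap drives Cre. Its direction depended on the scaling, so it is only a limited check of the precipitation.

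Gfap, the intermediate filament of astrocytes, had 1168, 2898 and 1833 CPM in HA, against 141, 224 and 10.7 CPM in FT (log2 difference 4.54, SE 0.63, edgeR adjusted p = 3.45e-06). Slc1a2, the main glutamate transporter of astrocytes, had 2307, 937 and 1354 CPM in HA, against 212, 296 and 50.3 CPM in FT (log2 difference 3.31, SE 0.55, edgeR adjusted p = 5.87e-05). Aqp4, the water channel of astrocyte end-feet, had 609, 323 and 644 CPM in HA, against 124, 79.4 and 34.2 CPM in FT (log2 difference 2.88, SE 0.55, edgeR adjusted p = 0.000442). Gfap lies on chromosome 11, 102887336 to 102900912, on the minus strand of mm10. For these genes every HA library was above every FT library, and FT 1732, the FT library richest in messenger RNA, was the lowest. With library totals Aqp4 turned to -0.11.

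Clu, a secreted chaperone, had 374, 286 and 567 CPM in HA, against 13.2, 72.2 and 10.1 CPM in FT (log2 difference 4.25, SE 0.68, edgeR adjusted p = 3.65e-05). It was high in all HA libraries, with FT 1687 the highest of the FT libraries and no overlap. Ntsr2, a neurotensin receptor enriched in astrocytes, had 423, 78 and 701 counts in HA, against 0, 0 and 1 counts in FT. Its ratio of pooled CPM was 98.4, counting interval 17.6 to 3891 (edgeR adjusted p = 0.000312), resting on a single FT read. Etnppl, an ethanolamine phosphate lyase of astrocytes, was likewise seen with 1 FT read, with 1132, 263 and 487 counts in HA, against 0, 1 and 0 counts in FT, a ratio of 154, counting interval 27.6 to 6090 (edgeR adjusted p = 0.00114).

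Further calls among the markers were Gja1, S100b, Glul, Aldoc, Atp1b2, Slc4a4, Acsbg1 and Gpr37l1, with log2 differences from 1.54 for Glul, glutamine synthetase, to 3.33 for Gja1, the gap junction protein connexin 43. Aldoc, an aldolase of astrocytes, lost its call without 1685 (adjusted p = 0.162) and without 1687 (0.0561). Slc1a3, the other glial glutamate transporter, had 53.5, 1.29 and 7.78 CPM in HA, against 0, 0 and 4.69 CPM in FT and did not pass (log2 difference 2.45, SE 1.46, edgeR adjusted p = 0.327), with HA 1687 within the FT range. Sox9, a transcription factor of astrocytes, had 19.1, 37.5 and 71.6 CPM in HA, against 8.84, 7.22 and 4.69 CPM in FT (log2 difference 2.73, SE 0.97, edgeR adjusted p = 0.0602), with no overlap between fractions and an adjusted p just above the threshold. Apoe and Gjb6 did not pass either, and Aldh1l1, Fgfr3, Mlc1 and Mfge8 were not tested.

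FT was not free of astrocyte RNA. The 2 FT libraries of the same treatment that have no HA partner, 1645 and 1729, differed widely in these genes. Aqp4 was 11.9 CPM in FT 1645, a single read, and 858 CPM in FT 1729. Slc1a2 was 94.9 CPM in FT 1645 and 2240 CPM in FT 1729. FT 1729 was thus above every HA library for Aqp4 and above HA 1687 and HA 1732 for Slc1a2. FT 1645 held only 2251 counts in protein-coding genes other than Lars2. The CPM of these FT libraries were scaled over all 23 libraries, unlike the HA values, so this order is approximate. Gfap was 190 CPM in FT 1645 and 109 CPM in FT 1729, within the range of the paired FT libraries. With both of them in the fit, which then has no block, 3 of the 18 markers passed in place of 14, and Gfap was still among the calls while Aqp4 and Slc1a2 were not.

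**Figure D2:**
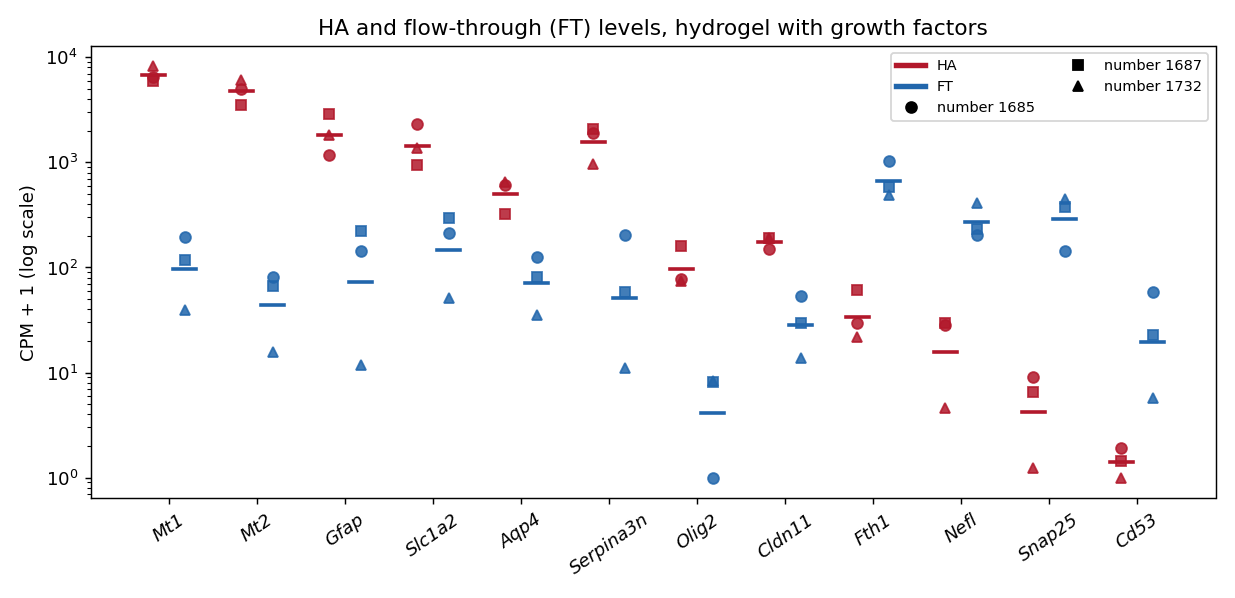
Levels of 12 genes in each library, as CPM + 1 on a log axis, with HA in red to the left of FT in blue, a symbol for each number and a bar at the geometric mean. HA and FT libraries did not overlap for any of the genes drawn, with Mt1 to Cldn11 higher in HA and Fth1 to Cd53 lower, by TMM-scaled CPM; with library totals in place of TMM scaling, Aqp4 and Cldn11 turned to the other direction.

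Genes of the reactive state were described by 6 tested members, of which 3 were higher in HA and none lower, with a median of 3.25, or 2.90 above all genes tested. With library totals 2 were higher and 1 lower. Gfap is one of the 3. Serpina3n, a secreted protease inhibitor induced in reactive astrocytes, had 1904, 2057 and 955 CPM in HA, against 203, 57.7 and 10.1 CPM in FT (log2 difference 4.95, SE 0.61, edgeR adjusted p = 2.49e-07). C3, the central complement protein, had 298, 64 and 181 counts in HA, against 0, 0 and 1 counts in FT, a ratio of 44.5, counting interval 7.95 to 1759 (edgeR adjusted p = 0.00515). HA was far above FT for both, although FT 1685 held 203 CPM of Serpina3n. Vim, the filament protein vimentin, had 78.2, 76.2 and 99.5 CPM in HA, against 53, 0 and 23.5 CPM in FT and did not pass (log2 difference 1.96, SE 0.73, edgeR adjusted p = 0.0751), nor did Cxcl10, an interferon-induced chemokine, or H2-D1, a class I antigen. The other 14 of the 20 genes in the list were not tested.

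The metallothioneins Mt2 and Mt1 had the lowest adjusted p of all genes tested. Metallothioneins are small cysteine-rich proteins that bind zinc and copper, and their genes lie close together on chromosome 8. Mt1 had 6466, 5980 and 8170 CPM in HA, against 194, 116 and 38.2 CPM in FT (log2 difference 6.15, SE 0.57, edgeR adjusted p = 4.16e-10). Mt2 had 5025, 3524 and 6025 CPM in HA, against 79.5, 64.9 and 14.8 CPM in FT (log2 difference 6.81, SE 0.61, edgeR adjusted p = 2.09e-10). Each HA library was more than 10 times any FT library for both genes. Both passed in all alternative settings tried, library totals included. Mt3, the brain-enriched member, had 368, 56 and 459 counts in HA, against 0, 0 and 0 counts in FT, so that it was at least 24.1-fold higher in HA when 3 counts over the FT group are taken as the floor (edgeR adjusted p = 0.00118). Without 1732 the adjusted p of Mt3 was 0.0554. Slc39a1, a zinc importer, had 29.8, 28.4 and 16.3 CPM in HA, against 0, 14.4 and 0.67 CPM in FT and did not pass (log2 difference 3.29, SE 1.17, edgeR adjusted p = 0.0602). With Mt3 at its bound, the median of the 4 tested members of the list was 5.37.

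The promoters of the 3 metallothionein genes are shown because all 3 were higher in HA. Zinc-dependent induction of Mt1 and Mt2 is known to act through metal response elements, and such induction was not tested here. Each sequence runs from 250 bases before the start to 50 bases after it, on the plus strand, and comes from RefSeq for build GRCm38.p6 (mm10): Mt2 at chr8:94172368-94172667, Mt1 at chr8:94178839-94179138 and Mt3 at chr8:94152357-94152656. Capitals mark the core of the metal response element, searched as TGCACNC and TGCGCNC on both strands.
Mt2: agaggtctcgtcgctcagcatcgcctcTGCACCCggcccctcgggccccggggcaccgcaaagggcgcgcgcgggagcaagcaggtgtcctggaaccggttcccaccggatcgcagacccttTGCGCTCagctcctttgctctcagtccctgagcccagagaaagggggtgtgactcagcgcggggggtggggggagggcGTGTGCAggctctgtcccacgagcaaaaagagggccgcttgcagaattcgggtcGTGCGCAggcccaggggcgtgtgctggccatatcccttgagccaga
Mt1: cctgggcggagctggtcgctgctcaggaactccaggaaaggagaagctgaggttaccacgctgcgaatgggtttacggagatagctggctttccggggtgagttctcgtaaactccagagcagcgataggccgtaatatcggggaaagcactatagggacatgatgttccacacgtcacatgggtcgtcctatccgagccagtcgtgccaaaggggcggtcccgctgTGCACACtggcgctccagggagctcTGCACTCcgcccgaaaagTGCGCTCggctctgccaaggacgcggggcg
Mt3: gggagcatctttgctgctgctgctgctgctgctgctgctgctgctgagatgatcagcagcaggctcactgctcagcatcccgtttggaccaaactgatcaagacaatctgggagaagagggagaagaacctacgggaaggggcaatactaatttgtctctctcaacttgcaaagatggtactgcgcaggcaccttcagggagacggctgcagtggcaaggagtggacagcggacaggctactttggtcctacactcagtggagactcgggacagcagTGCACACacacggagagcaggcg
Mt2 held 4 matches, Mt1 held 3 and Mt3 held 1. Of the 32851 promoters of the same length, 25.7% held at least 1 match, 7.11% at least 2, 1.97% at least 3 and 0.517% at least 4. A match describes the letters and does not show that a factor binds there.

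Secreted proteins known from astrocytes were higher in HA for 7 of 12 tested members, with none lower and a median of 2.15 (median of all genes 0.35). That median lay 1.8 above all genes tested. With library totals none was higher and 4 were lower, with a median of -0.90, and with only the 6 libraries 3 were higher. Cpe, a carboxypeptidase that processes peptide precursors, had 2072, 3280 and 1785 CPM in HA, against 300, 238 and 346 CPM in FT (log2 difference 2.96, SE 0.50, edgeR adjusted p = 8.74e-05). Timp3, an inhibitor of matrix metalloproteinases, had 275, 32.7 and 103 CPM in HA, against 17.7, 0 and 2.68 CPM in FT (log2 difference 4.72, SE 0.90, edgeR adjusted p = 0.000442). No HA library overlapped FT for either gene, and HA 1687 was the lowest HA library for Timp3. Without 1732, 4 of the 12 members passed.

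Sparcl1, a matricellular protein that promotes synapse formation, had 839, 595 and 323 CPM in HA, against 61.9, 144 and 99.2 CPM in FT (log2 difference 2.45, SE 0.59, edgeR adjusted p = 0.00432), and its adjusted p was 0.0674 without 1685. Sparc, its relative that antagonises it, had 71, 55 and 111 counts in HA, against 0, 0 and 0 counts in FT and was at least 6.47-fold higher in HA (edgeR adjusted p = 0.016), with an adjusted p of 0.164 without 1732. Igfbp5, a binding protein of insulin-like growth factors, and Cst3, cystatin C, were the other calls beside Clu. Among proteoglycans and tenascins of the scar, 1 of 6 tested members passed (16.7%, against 7.46% of all genes higher), with a median of 2.28 that was -0.75 with library totals. It was Cspg5, neuroglycan C, with 161, 223 and 47.1 CPM in HA, against 22.1, 7.22 and 24.8 CPM in FT (log2 difference 2.52, SE 0.81, edgeR adjusted p = 0.0391), and its call was lost without 1685 (adjusted p = 0.144) or without 1687 (0.171).

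Some markers of the oligodendrocyte lineage were higher in HA. Of 6 progenitor markers tested, 4 were higher and none lower, with a median of 3.21 that lay 2.86 above all genes tested. With only the 6 libraries 1 was higher, and with library totals none, with a median of 0.15. Their summed level ranged from 448 to 647 CPM over the HA libraries and from 22.1 to 107 CPM over the FT libraries. Olig2, a transcription factor of the lineage, had 76.1, 158 and 74.1 CPM in HA, against 0, 7.22 and 7.37 CPM in FT (log2 difference 4.14, SE 0.88, edgeR adjusted p = 0.00148). Olig1, its neighbour and relative, had 185, 204 and 370 CPM in HA, against 4.42, 72.2 and 29.5 CPM in FT (log2 difference 3.23, SE 0.66, edgeR adjusted p = 0.000983). Each HA library was above each FT library for both, and both passed without each number in turn. Gpr17, a receptor of committed progenitors, and Cacng4, a stargazin relative, had log2 differences of 3.18 and 2.74. The call of Gpr17 was lost without any one of the 3 numbers (adjusted p = 0.0663, 0.0674 and 0.0580), and that of Cacng4 without 1685 (0.127) or 1687 (0.0758). Without 1685 or without 1687, 2 of 7 members then tested passed. Cspg4, the NG2 proteoglycan, had 44, 9.47 and 4.74 CPM in HA, against 8.84, 0 and 0 CPM in FT and did not pass (log2 difference 3.48, SE 1.45, edgeR adjusted p = 0.121).

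Of 13 genes of mature oligodendrocytes and myelin, 5 were higher in HA and none lower, with a median of 2.29, or 1.94 above all genes tested. With only the 6 libraries none passed, and with library totals none was higher and 3 were lower, with a median of -0.75. Cldn11, a claudin of the myelin sheath, had 148, 192 and 189 CPM in HA, against 53, 28.9 and 12.7 CPM in FT (log2 difference 2.72, SE 0.68, edgeR adjusted p = 0.00622). Gjc3, a connexin of oligodendrocytes, had 96.4, 164 and 100 CPM in HA, against 44.2, 28.9 and 5.36 CPM in FT (log2 difference 2.62, SE 0.72, edgeR adjusted p = 0.0137). Mag, myelin-associated glycoprotein, had 514, 100 and 201 counts in HA, against 1, 1 and 0 counts in FT, a ratio of 33.4, counting interval 9.21 to 276 (edgeR adjusted p = 0.00446). FT 1732 was the lowest library for these genes, and without that number their adjusted p was 0.0809, 0.143 and 0.0809. Opalin, a myelin membrane protein, had 89, 51 and 159 counts in HA, against 0, 0 and 0 counts in FT, at least 8.16-fold higher in HA (edgeR adjusted p = 0.0175), and was lost likewise without 1732 (0.182). Without 1732, 1 of the 13 passed. Mbp, myelin basic protein, had 4.04, 4.74 and 6.45 CPM in HA, against 0, 43.3 and 1.34 CPM in FT and did not pass (log2 difference 0.23, SE 1.53, edgeR adjusted p = 0.958). Sox10, shared by oligodendrocytes and Schwann cells, did not pass (log2 difference 1.93, SE 0.99), and it was the only one of 5 listed Schwann cell markers with enough counts.

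Genes of neural progenitors were tested for 5 members, and 2 passed, both higher in HA (40%, against 7.46% of all genes tested). With only the 6 libraries none passed, and with library totals none was higher and 1 was lower. Id3, an inhibitor of differentiation, had 63.5, 42.2 and 101 CPM in HA, against 26.5, 7.22 and 2.68 CPM in FT (log2 difference 3.07, SE 0.94, edgeR adjusted p = 0.0286). Id4, its relative, had 56.9, 40 and 72.7 CPM in HA, against 0, 0 and 24.8 CPM in FT (log2 difference 3.01, SE 1.00, edgeR adjusted p = 0.0438). The calls depended on single libraries, with an adjusted p of 0.292 for Id3 without 1732, and of 0.199 without 1685 and 0.0941 without 1687 for Id4. Of 6 listed ependymal markers, 5 were listed only in HA, and none was tested. Among all 9363 genes listed in HA, 4582 were listed only there.

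Microglia and macrophage genes were lower in HA for 6 of 13 tested members and higher for none, with a median of -2.37, or -2.72 relative to all genes tested. Cd53, a leukocyte tetraspanin, had 0.907, 0.431 and 0 CPM in HA, against 57.4, 21.6 and 4.69 CPM in FT (log2 difference -6.12, SE 1.18, edgeR adjusted p = 0.000455). Laptm5, a lysosomal protein of blood cells, had 0.412, 0.861 and 0.365 CPM in HA, against 13.2, 36.1 and 2.01 CPM in FT (log2 difference -4.28, SE 0.94, edgeR adjusted p = 0.00195). HA stood at or below 1 CPM for both, while FT 1685 and FT 1687 were the high libraries by CPM and FT 1732 the lowest of FT. A single read was worth 4.42 CPM in FT 1685, 7.22 in FT 1687 and 0.67 in FT 1732. These FT levels therefore rest on few reads, and the order of the FT libraries is that of CPM and not of reads.

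Fcer1g, an immunoglobulin receptor subunit, had 33.8, 25 and 6.32 CPM in HA, against 327, 116 and 16.8 CPM in FT (log2 difference -2.32, SE 0.63, edgeR adjusted p = 0.0127). C1qb, a chain of complement C1q, had 12.3, 0.431 and 3.04 CPM in HA, against 97.2, 36.1 and 7.37 CPM in FT (log2 difference -2.98, SE 0.82, edgeR adjusted p = 0.0144). HA 1685 was above FT 1732 for both, and HA 1687 was also above it for Fcer1g, so the fractions overlapped. Both calls were lost without 1685 (adjusted p = 0.0975 and 0.0652) and without 1687 (0.0699 and 0.155). Lyz2, lysozyme, and Gpnmb, a glycoprotein of phagocytes, were the other calls. Without 1685 none of the 8 members then tested passed, and without 1687 1 of 13. With all 5 FT libraries 2 of 13 passed. C1qa, the partner chain of C1qb, had 27.7, 29.3 and 3.77 CPM in HA, against 8.84, 14.4 and 0.67 CPM in FT and did not pass (log2 difference 1.65, SE 0.79, edgeR adjusted p = 0.186), and Tyrobp, a microglial adaptor, had 2.97, 0 and 0.486 CPM in HA, against 4.42, 14.4 and 2.68 CPM in FT (log2 difference -2.60, SE 1.19, edgeR adjusted p = 0.165). The summed level of the list ranged from 180 to 252 CPM over the HA libraries and from 154 to 1997 CPM over the FT libraries, so HA was not empty of these genes and the ranges overlapped. Of 1 listed marker of T cells, B cells or neutrophils, none was tested.

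Neuronal genes were lower in HA for 7 of 13 tested members and higher for none. The median was -2.46, or -2.81 relative to all genes tested. Nefl, the light neurofilament chain, had 27.6, 28.9 and 3.65 CPM in HA, against 203, 231 and 411 CPM in FT (log2 difference -4.09, SE 0.76, edgeR adjusted p = 0.000355). Nefh, the heavy chain, had 10.9, 12.5 and 2.43 CPM in HA, against 88.4, 116 and 31.5 CPM in FT (log2 difference -3.30, SE 0.70, edgeR adjusted p = 0.00156). Nefm, the medium chain, had 41, 184 and 29.1 CPM in HA, against 676, 628 and 123 CPM in FT (log2 difference -2.61, SE 0.60, edgeR adjusted p = 0.0031). The neurofilament chains were each lower in HA, with FT 1732 the highest library for Nefl and the lowest FT library for Nefh and Nefm, and HA 1687 overlapping FT 1732 for Nefm. Map2, a dendritic microtubule protein, and Slc17a6, the vesicular glutamate transporter of the cord, were also lower, with 10, 0 and 2 counts in HA, against 1, 1 and 77 counts in FT for Map2 (log2 difference -5.58, SE 1.66, edgeR adjusted p = 0.0233) and an adjusted p of 0.0792 without 1687. Gap43, Uchl1, Stmn2, Thy1, Snhg11 and Meg3 did not pass. Without 1732, 4 of the 10 members then tested were lower.

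Presynaptic genes made up 5 of the lower calls among 8 tested, with a median of -3.03, or -3.38 relative to all genes tested. Snap25 and Syp are also among the neuronal calls above, so the lists are not independent. Snap25, a SNARE protein of transmitter release, had 8.08, 5.6 and 0.243 CPM in HA, against 141, 375 and 447 CPM in FT (log2 difference -6.50, SE 1.12, edgeR adjusted p = 0.000538). Cplx1, complexin, had 2.72, 6.89 and 1.7 CPM in HA, against 44.2, 14.4 and 109 CPM in FT (log2 difference -4.0, SE 0.89, edgeR adjusted p = 0.00233). All FT libraries were above all HA libraries for both genes. Nsf, the ATPase that recycles SNARE complexes, had 52.5, 0.431 and 0.243 CPM in HA, against 181, 14.4 and 121 CPM in FT, with HA 1685 within the FT range (log2 difference -4.87, SE 1.16, edgeR adjusted p = 0.00421), and an adjusted p of 0.0853 without 1732. Syp, synaptophysin, was also lower, and Vamp2, Cplx2 and Sv2a did not pass. Without 1732, or with all 5 FT libraries, 3 of the 8 passed.

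**Figure D3:**
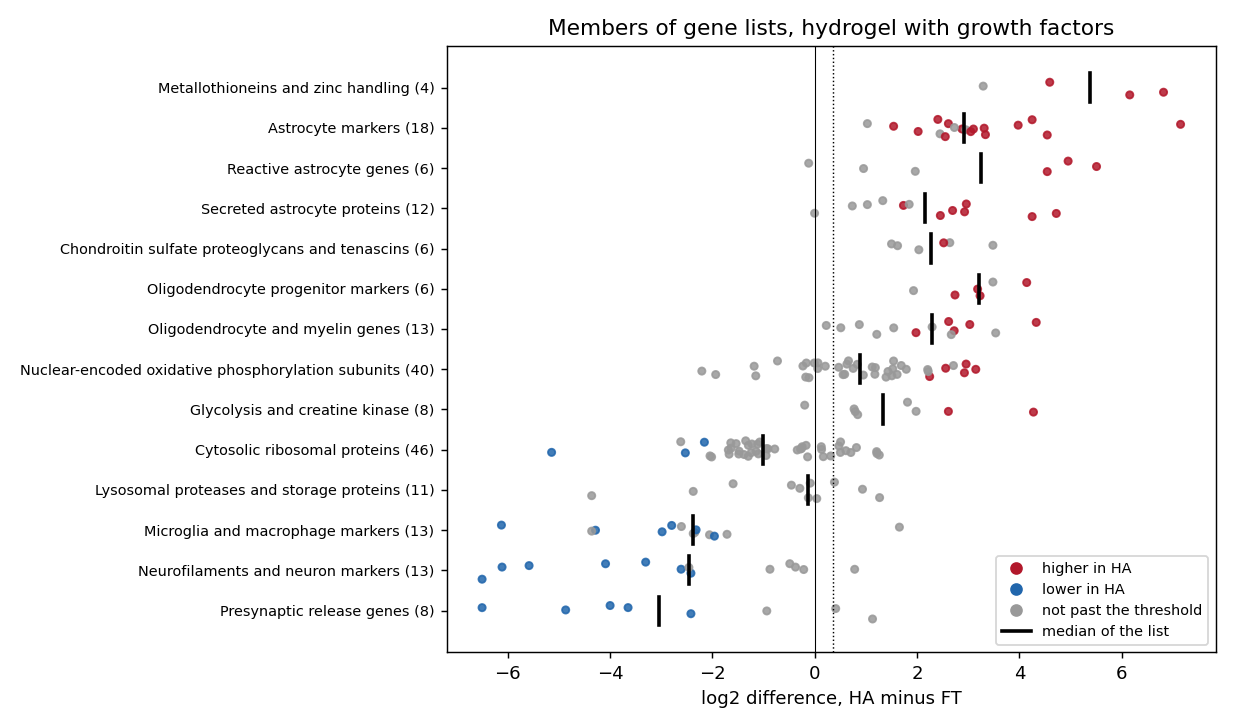
Each point is a tested member of 14 gene lists, at its log2 difference of HA minus FT in the hydrogel with growth factors group, with members higher in HA in red, lower in blue and not past the threshold in grey, and a bar at the median of the list. The medians of the astrocyte, metallothionein and oligodendrocyte lineage lists lie to the right of the dotted median of all genes, 0.35, and those of the microglial, neuronal and presynaptic lists to the left of it. Members with 1 fraction at 0 counts are drawn at their bound, and with library totals in place of TMM scaling all points shift left with the median of all genes, to -2.70, so that several medians drawn above 0 fall below it.

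The tagged protein itself was poorly measured. Rpl22, the ribosomal protein that carries the tag in RiboTag mice, had 1133, 0 and 73 counts in HA, against 10, 1 and 15 counts in FT and did not pass (log2 difference -0.17, SE 1.04), and its sign turned in 5 alternative settings. Of 46 cytosolic ribosomal protein genes tested, Rpl22 among them, 3 were lower in HA (6.52%, against 3.39% of all genes tested) and none higher, with a median of -1.01, or -1.36 relative to all genes tested. Rpl4, of the large subunit, had 47.1, 25.8 and 46.8 CPM in HA, against 230, 93.8 and 477 CPM in FT (log2 difference -2.53, SE 0.56, edgeR adjusted p = 0.00222), and each FT library was above each HA library. The call of Rpl17 was lost without 1685 (adjusted p = 0.207) or 1732 (0.115), and that of Rpl12 without 1685 (0.159) or 1687 (0.0827). Many ribosomal protein genes have processed copies, and reads of such copies could not be told apart. Of 30 translation factors, 1 was higher (3.33%, against 7.46% of all genes tested) and 2 were lower (6.67%, against 3.39%). Eif3a, a scaffold of initiation, was higher (log2 difference 1.91, SE 0.56) and Eef2, the translocase, and Eif3f were lower (-1.64 and -2.59), and each of these calls was lost without 1732, with an adjusted p of 0.123, 0.180 and 0.207. Those of Eef2 and Eif3f were also lost without 1687 (0.0968 and 0.252). With library totals Eif3a turned to -1.08.

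Fth1, the heavy chain of ferritin, had the lowest adjusted p among the 103 genes lower in HA. It had 28.4, 59.4 and 20.9 CPM in HA, against 1025, 584 and 489 CPM in FT (log2 difference -4.35, SE 0.52, edgeR adjusted p = 1.41e-07). Every FT library was at least 8 times any HA library, and it passed in all alternative settings tried. The gene lies on chromosome 19, 9980598 to 9985098, on the plus strand. The other 4 tested genes of iron storage and transport did not pass. Igf1, a growth factor that microglia and macrophages are known to make, had 0.742, 2.58 and 0.122 CPM in HA, against 35.4, 57.7 and 14.8 CPM in FT (log2 difference -5.46, SE 1.24, edgeR adjusted p = 0.00292), with no overlap, and it is the 1 lower call among 9 tested genes that are known to support axon growth. The 4 higher calls there were Sparc, Sparcl1, Hbegf and Sdc4, a syndecan, with 158, 262 and 309 CPM in HA, against 44.2, 28.9 and 4.02 CPM in FT (log2 difference 3.71, SE 0.75, edgeR adjusted p = 0.000891). These calls are 44.4% higher and 11.1% lower, against 7.46% and 3.39% of all genes tested. With library totals none of the 9 was higher and 2 were lower, with a median of -0.565. With only the 6 libraries 1 was higher and none lower.

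Receptors and ligands of the growth factors named for the depot were mostly too sparse to test. Egfr, the EGF receptor, had 8, 0 and 2 counts in HA, and Fgfr2 and Fgfr3, receptors of FGF, had 0, 0 and 55 and 0, 0 and 19 counts in HA. These were not listed in FT, and Fgfr1 was listed in neither fraction. Hbegf, an EGF family ligand, had 36.9, 18.5 and 70.5 CPM in HA, against 8.84, 0 and 3.35 CPM in FT (log2 difference 3.58, SE 1.17, edgeR adjusted p = 0.0407), the only call among 3 tested members, and the call was lost without 1687 (adjusted p = 0.0694) and without 1732 (0.284). Ntrk2, the BDNF receptor TrkB, had 96.2, 92.6 and 202 CPM in HA, against 8.84, 43.3 and 15.4 CPM in FT (log2 difference 2.79, SE 0.73, edgeR adjusted p = 0.00962), with an adjusted p of 0.05002 without 1685 and 0.115 without 1732. Of the 3 tested genes that FGF and EGF signalling is known to induce, none passed. Ccnd1, cyclin D1, had 5.03, 85.7 and 64.3 CPM in HA, against 13.2, 0 and 0 CPM in FT (log2 difference 3.82, SE 1.56, edgeR adjusted p = 0.111) and Spred1, an inhibitor of the pathway, had 51.9, 8.61 and 28.3 CPM in HA, against 26.5, 7.22 and 7.37 CPM in FT (log2 difference 1.26, SE 0.87, edgeR adjusted p = 0.43). No gene among the 4 tested proliferation genes passed, with a median of 1.87 that was -1.03 with library totals, and without 1685 2 of them were higher.

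Of 40 nuclear-encoded subunits of oxidative phosphorylation, 5 were higher in HA and none lower, with a median of 0.89, 0.54 above all genes tested. With library totals none was higher and 11 were lower, with a median of -2.24. The 5 of 40 are 12.5%, against 7.46% of all genes tested, and with only the 6 libraries in the fit none of the 40 passed. Without 1687 it was 2 of 43 and without 1732 2 of 35. Cox6b1, of cytochrome oxidase, had 88.4, 126 and 141 CPM in HA, against 13.2, 0 and 32.8 CPM in FT (log2 difference 2.96, SE 0.77, edgeR adjusted p = 0.00881). Ndufa2, Ndufa13, Sdha and Cox7c were the others, of which Ndufa2 was lost without 1732 (adjusted p = 0.0519), Ndufa13 without 1687 (0.0868) or 1732 (0.0733), and Sdha without 1685 (0.0555) or 1687 (0.0977). Ckb, the brain creatine kinase, had 876, 1504 and 975 CPM in HA, against 35.4, 101 and 48.9 CPM in FT (log2 difference 4.27, SE 0.53, edgeR adjusted p = 2.49e-07), with each HA library above each FT library.

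Prdx6, a peroxiredoxin of astrocytes, had 547, 496 and 482 CPM in HA, against 88.4, 21.6 and 26.1 CPM in FT (log2 difference 3.72, SE 0.58, edgeR adjusted p = 2.44e-05), the only call among 15 antioxidant genes (6.67%, against 7.46% of all genes higher). Scd2 and Scd1, desaturases of fatty acid synthesis, were the 2 calls among 10 lipid genes (20%, against 7.46% of all genes higher). Scd2 had 832, 783 and 963 CPM in HA, against 115, 209 and 83.8 CPM in FT (log2 difference 2.78, SE 0.50, edgeR adjusted p = 0.000201). Scd1 had a log2 difference of 2.64 and was lost without 1732 (adjusted p = 0.113). The median of the lipid list was 0.32, or -0.03 relative to all genes tested. With library totals none of the 10 was higher and 6 were lower, and with all 5 FT libraries none passed. Ifit3, an interferon-induced gene, had 1211, 61 and 24 counts in HA, against 2, 0 and 0 counts in FT, a ratio of 53.1, counting interval 14.7 to 439 (edgeR adjusted p = 0.0152), with HA 1732 within the FT range. Kif5b and Mapre1 were higher and Kif5a, the neuronal kinesin, and Map2 were lower among 21 tubulin and microtubule genes, 9.52% in each direction against 7.46% higher and 3.39% lower among all genes tested, and all 4 calls were lost without 1687 (adjusted p = 0.0725, 0.118, 0.0828 and 0.0792). Kif5b and Kif5a were also lost without 1732 (0.218 and 0.112), and Mapre1 without 1685 (0.0534). None of 11 lysosomal genes, 9 heat shock genes and 1 tested endothelial gene passed.

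Among all genes, the largest differences rested on fractions with hardly any reads. Genes at 0 in 1 fraction, Mt3, Sparc and Opalin above among them, passed the filter only through the other fraction. All 6 tested genes at 0 in every HA library were called, as were 7 of the 8 at 0 in every FT library. Genes with hardly any reads in 1 fraction passed it in the same way. Ntsr2, Etnppl, C3, Mag, Cpq and Arhgap31 passed through HA. Cd53, Laptm5, Grin2b, Hecw1, Tspan13 and AI593442 passed through FT. The bounds, ratios, counting intervals and adjusted p of all such genes are therefore a description and no independent support. Entpd1, the ectonucleotidase CD39 of microglia, had 0, 0 and 0 counts in HA, against 16, 14 and 2 counts in FT, at least 130-fold lower in HA (edgeR adjusted p = 0.000851). It was at 0 in every HA library, and FT 1732 was the lowest FT library. Stxbp5, Rbms3, Cers6 and Nrn1 were likewise at 0 in HA, with bounds of 97.7, 208, 130 and 126-fold, and the calls of Cers6 and Nrn1 were lost without 1687 (adjusted p = 0.0818 and 0.0551), that of Cers6 also without 1685 (0.0576). Grin2b, an NMDA receptor subunit of neurons, had 3, 0 and 0 counts in HA, against 3, 1 and 48 counts in FT, with FT over HA at 212, counting interval 68.5 to 1060 (edgeR adjusted p = 0.0119). Hecw1, a ubiquitin ligase, had 2, 0 and 0 counts in HA, against 5, 2 and 43 counts in FT, with FT over HA at 305, counting interval 80.2 to 2591 (edgeR adjusted p = 0.0017). Tspan13, a tetraspanin, had 0.907, 0 and 0 CPM in HA, against 13.2, 72.2 and 94.5 CPM in FT (log2 difference -7.55, SE 1.49, edgeR adjusted p = 0.000635), and AI593442, an unnamed coding gene, had 0.495, 0 and 0 CPM in HA, against 17.7, 93.8 and 34.2 CPM in FT (log2 difference -7.59, SE 1.40, edgeR adjusted p = 0.000342). Zdhhc13 and Tmem130 were also among the 12 lowest, with 1 HA read each.

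At the other end, Ikbip, Fmod and Dlgap1 were at 0 in every FT library, with bounds of 18.4, 6.91 and 3.63-fold, and each lost its call without 1732 (adjusted p = 0.181, 0.198 and 0.230), Dlgap1 also without 1687 (0.0537). Fmod encodes fibromodulin, a collagen-binding proteoglycan, and Dlgap1 a postsynaptic scaffold. Cpq, a carboxypeptidase, had 305, 73 and 922 counts in HA, against 0, 0 and 1 counts in FT, a ratio of 106, counting interval 19.1 to 4208 (edgeR adjusted p = 0.000538). Arhgap31, a GTPase-activating protein, had 490, 21 and 687 counts in HA, against 0, 0 and 2 counts in FT, a ratio of 49, counting interval 13.6 to 406 (edgeR adjusted p = 0.0028, and 0.0758 without 1732).

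Loci that collect ribosomal RNA reads were themselves higher in HA, 7 of 8 tested, with a median of 3.55, or 3.20 above all genes tested. Rpph1, the RNA of RNase P, was the 1 lower call. With library totals 4 were higher and 1 lower. Mir6236, a microRNA entry that overlaps ribosomal sequence, had 2889, 2819 and 3743 counts in HA, against 3, 11 and 22 counts in FT (log2 difference 4.39, SE 0.52, edgeR adjusted p = 1.31e-07), and Lars2 had 938127, 832597 and 791541 counts in HA, against 2084, 3197 and 2537 counts in FT (log2 difference 4.26, SE 0.53, edgeR adjusted p = 2.49e-07). Restricting the fit to protein-coding genes without Lars2 gave 312 calls among 2436 genes tested, with 14 of 18 astrocyte markers higher. GC content moved with the difference too. The median transcript GC was 50.6% among genes higher in HA, 47.4% among those lower and 48.4% among all tested. From the 595 coding genes lowest in GC to the 595 highest, the share called higher was 5.71%, 3.70%, 7.90%, 8.57% and 10.3%. It did not rise at each step, and the share called lower was 3.03%, 4.37%, 4.20%, 1.68% and 3.36%. The part of GC content and of ribosomal RNA in the differences was not tested.

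**Figure D4:**
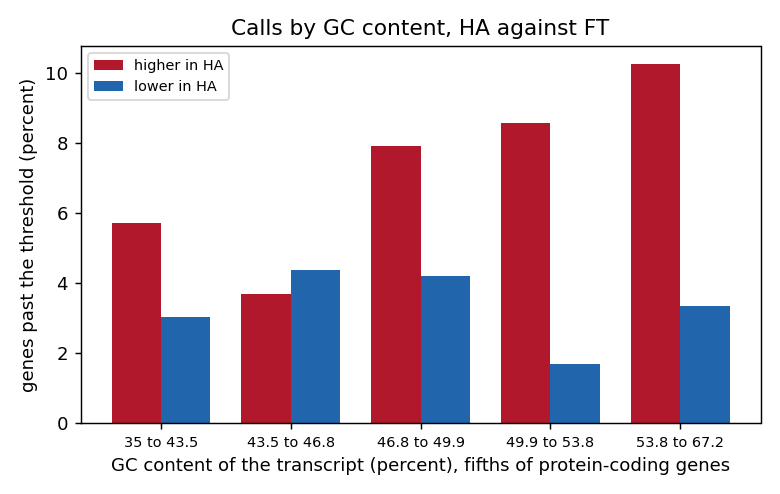
Percent of the protein-coding genes tested that were higher in HA (red) or lower in HA (blue), by 5 equal classes of transcript GC content, with 595 genes in each and bars from 0. From the lowest class to the highest, the share higher in HA was 5.71%, 3.70%, 7.90%, 8.57% and 10.3%. The share lower in HA was 3.03%, 4.37%, 4.20%, 1.68% and 3.36%.

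The HA minus FT difference was set against that of the other treatments, with the same test of each. The 3041 genes were filtered on the growth-factor libraries alone, so genes low there could not be called in any treatment. The shares called are therefore not like for like between treatments. With hydrogel CT 117 genes were called (3.85%), 60 higher (1.97%) and 57 lower (1.87%), and with SCI only 242 (7.96%), 112 higher (3.68%) and 130 lower (4.27%). Whether the difference itself depended on the treatment was tested as an interaction. Against hydrogel CT 1 gene of 3041 passed (0.0329%, 245 at an unadjusted p under 0.05), and against SCI only 16 passed (0.526%, 305 unadjusted), 15 with a more positive difference with growth factors (0.493%) and 1 with a less positive one (0.0329%). The SCI only animals carry another range of title numbers, so the treatment and the cohort cannot be told apart there. Depth differed as well, with 40367 to 144902 counts in the FT libraries with growth factors, 28285 to 85088 with hydrogel CT, and 2241508 to 5432216 with SCI only, of which 89.7% to 93.1% were Yam1. The part of this depth in the interactions against SCI only was not tested. The median interaction over all genes tested was -0.08 against hydrogel CT and 0.37 against SCI only. Interaction values with library totals were not examined, so how far they depend on TMM scaling is not known.

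With TMM scaling, the differences of Mt2 and Mt1 were larger than with SCI only, and the comparison with hydrogel CT did not pass. For Mt2 the log2 difference was 6.81 with growth factors, against 4.08 with hydrogel CT and 3.76 with SCI only, and growth factors minus SCI only gave 3.05, SE 0.66, edgeR adjusted p = 0.0133, whereas growth factors minus hydrogel CT gave 2.73, SE 0.70, edgeR adjusted p = 0.129. For Mt1 it was 6.15 with growth factors, against 4.04 with hydrogel CT and 3.45 with SCI only (against SCI only 2.70, SE 0.63, edgeR adjusted p = 0.0293, against hydrogel CT 2.12, SE 0.68, edgeR adjusted p = 0.39). FT values of Mt1 were 194, 116 and 38.2 CPM with growth factors, between 159 and 268 CPM with hydrogel CT and between 432 and 646 CPM with SCI only, while HA values were 6466, 5980 and 8170 CPM, between 2805 and 5319 CPM and between 4785 and 6512 CPM. By TMM-scaled CPM, Mt1 in FT was lower with growth factors than with SCI only in every library. The TMM factors were 5.62, 2.16 and 10.3 in these FT libraries and 0.153 to 0.539 with SCI only. Its FT reads were 44, 16 and 57 of 40294, 64303 and 144536 counts, against 157 to 1471 of 2241287 to 5430767 with SCI only. By library totals FT was therefore not lower with growth factors.

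Serpina3n had log2 differences of 4.95 with growth factors, against 3.26 with hydrogel CT and 1.73 with SCI only (against SCI only 3.22, SE 0.71, edgeR adjusted p = 0.0161, against hydrogel CT 1.69, SE 0.78, edgeR adjusted p = 0.614). C1qa had 1.65 with growth factors, against -2.06 with hydrogel CT and -3.36 with SCI only, and growth factors minus SCI only gave 5.02, SE 0.93, edgeR adjusted p = 0.00216. For C1qa growth factors minus hydrogel CT gave 3.71, SE 1.19, edgeR adjusted p = 0.39. The FT side of C1qa was 2, 2 and 1 reads with growth factors and 4, 4 and 0 with hydrogel CT, against 148 to 1216 with SCI only. Its FT values were 8.84, 14.4 and 0.67 CPM with growth factors, 14.9, 8.64 and 0 CPM with hydrogel CT and 415 to 733 CPM with SCI only, and its HA values 27.7, 29.3 and 3.77 CPM with growth factors and 18.4 to 192 CPM with SCI only. By TMM-scaled CPM, all FT libraries of C1qa were lower with growth factors than with SCI only and overlapped those with hydrogel CT. The HA ranges of growth factors and SCI only overlapped. Nckap1l, a regulator of actin in blood cells, was the 1 gene that passed against hydrogel CT (9.25, SE 1.88, edgeR adjusted p = 0.0495) and also passed against SCI only (8.44, SE 1.79, edgeR adjusted p = 0.0119). Its counts with growth factors were 450, 0 and 53 counts in HA, against 3, 0 and 0 counts in FT, and HA 1685 held most of them.

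The other genes that passed against SCI only were Rplp1, a stalk protein of the ribosome, Sppl2a, an intramembrane protease, Sec14l1, Tef, Minpp1, the microRNA entries Gm25911 and Gm23935, and the ribosomal RNA loci Gm15564, Lars2, Yam1 and Mir6236. Sppl2a was called higher in HA with growth factors (2.45) but not without 1687 (adjusted p = 0.0749) or 1732 (0.277). With no replicate block 2 genes passed against SCI only and 0 against hydrogel CT, and with protein-coding genes alone 8 passed against SCI only. Without 1685 the counts were 19 against hydrogel CT and 39 against SCI only.

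The astrocyte median was 2.91 with growth factors, 1.86 with hydrogel CT and 1.89 with SCI only, and the microglial median -2.37, -4.37 and -3.65, with 6, 11 and 11 of 13 members lower in HA. The median of oligodendrocyte and myelin genes was 2.29 with growth factors, against 0.51 with hydrogel CT and 0.56 with SCI only, with 5, 0 and 0 members higher. These medians rest on genes filtered on the growth-factor libraries alone and were not tested against each other. Apart from C1qa no member of these 3 lists passed an interaction. Mcl1, an inhibitor of apoptosis, was higher in HA with growth factors, with 765, 873 and 645 CPM in HA, against 499, 195 and 38.9 CPM in FT (log2 difference 2.26, SE 0.63, edgeR adjusted p = 0.0161), and had -0.06 with hydrogel CT and -0.85 with SCI only, while its interactions did not pass (adjusted p = 0.541 and 0.0715). Its call was lost without 1687 (0.0526) and without 1732 (0.172).

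**Figure D5:**
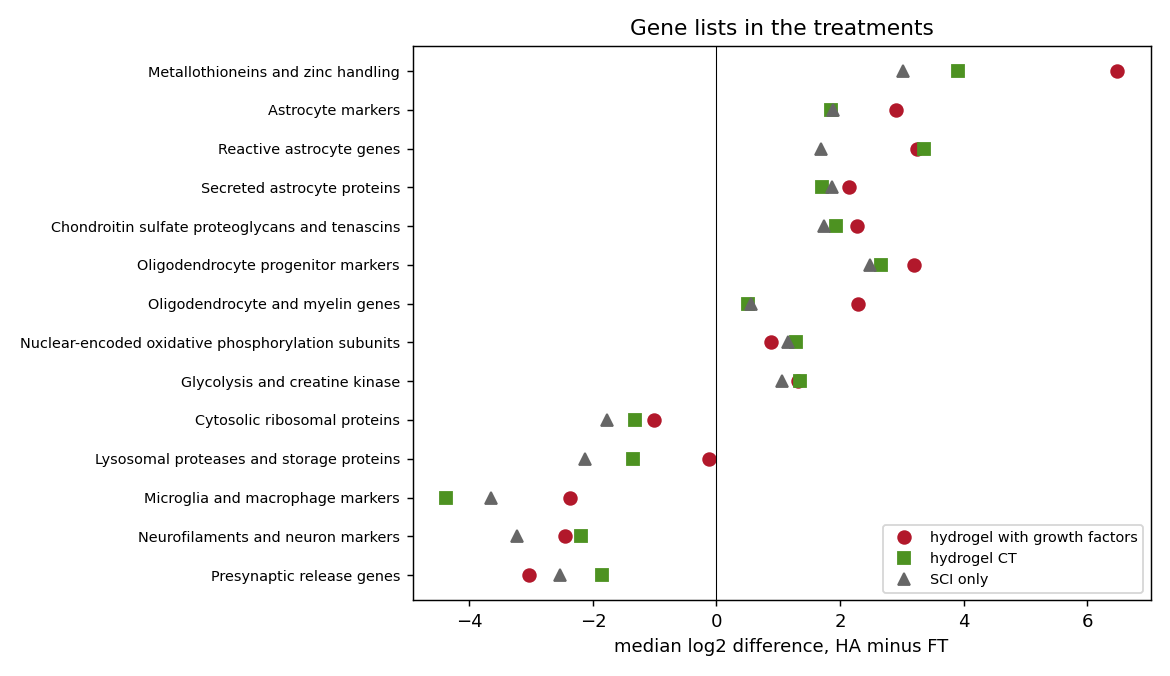
Median fitted log2 difference of HA minus FT for 14 gene lists in hydrogel with growth factors (red circles), hydrogel CT (green squares) and SCI only (grey triangles). All 3 treatments place each list on the same side of 0 with TMM scaling, and the oligodendrocyte and myelin median is 2.29 with growth factors, against 0.51 and 0.56; with library totals several of the growth factor medians, such as that of astrocyte markers at -0.05, turn.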

How the data were processed

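Astrocyte ribosome-associated RNA (HA) and flow-through RNA (FT) were amplified with a low-input NuGEN kit and sequenced paired-end, per the labels' protocols. The authors deposited 2 tables of whole-number read counts per gene, 1 for each fraction. The submitters' processing notes name CASAVA 1.8.2, edgeR and mm10. The aligner, the counter, the use of strand and the annotation were not given in the sources used here, so overlapping and antisense genes could not be separated. The tables also hold 45 columns of per-sample values that were not used. Rows without a gene symbol held 0.0127 to 0.0507% of the counts in the 3 HA libraries and 0.0482 to 0.319% in the 3 FT libraries and were left out.

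Counts were summed per symbol over the 4781 genes in both tables, and the fractions were joined. Genes were kept by filterByExpr (minimum count 10) over the 6 libraries. That minimum is scaled to library size, so in the shallow FT libraries a gene could pass with fewer reads. The quasi-likelihood test of edgeR 4.0.16 (limma 3.58.1, R 4.3.3) was fitted over 20 libraries, 10 numbers in both fractions, with TMM scaling, the number as a block and a term for HA in each treatment. The fit left 7 residual degrees of freedom. The test was two-sided, with Benjamini-Hochberg adjustment over 3041 genes and a threshold of 0.05. The SE is the log2 difference over the root of F. Counting intervals are exact at 95%, and a fraction at 0 was set to 3 counts over its group. Scripts were tested on simulated data.

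The pairing by number comes from the series text, by which both fractions were taken from the same tissue. The deviations of same-numbered libraries from their group means correlated at 0.00533, 0.0322 and 0.0597. HA 1685 correlated best with FT 1687, whereas HA 1687 and HA 1732 correlated best with their own number. The labels do not say that each number is a separate animal, so the p-values cover the spread among these libraries and no more. No pair of libraries agreed within sampling noise.

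The libraries compared, the gene lists and the rule for named genes were chosen with earlier results of these data known. The rule took up to 4 called members of each list with the smallest p, or 2 by level where none was called, the 12 highest and 12 lowest log2 differences, a fixed set of markers, and up to 10 genes for each interaction. Other list members are named to complete a list and were chosen after their values were seen. Alternatives were other scalings and filters, DESeq2 1.42.0, fits without the block, with 6 libraries, with protein-coding genes or with all 5 FT libraries, and leaving out each number. Some genes that the rule names are not reported here.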

Additional observations from a re-analysis of the deposited data

Results flagged for a closer look

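With TMM scaling, the HA minus FT difference differed between treatments for a few genes, by edgeR's test of the interaction. Interaction values with library totals were not examined. With growth factors minus hydrogel CT the log2 value of Nckap1l was 9.25 (SE 1.88, adjusted p = 0.0495). With growth factors minus SCI only, coding genes other than Lars2 had interaction values of C1qa (5.02, SE 0.93, adjusted p = 0.00216), Rplp1 (3.16, SE 0.66, adjusted p = 0.0119), Sppl2a (5.01, SE 1.06, adjusted p = 0.0119), Nckap1l (8.44, SE 1.79, adjusted p = 0.0119), Mt2 (3.05, SE 0.66, adjusted p = 0.0133), Serpina3n (3.22, SE 0.71, adjusted p = 0.0161), Mt1 (2.70, SE 0.63, adjusted p = 0.0293), Sec14l1 (5.84, SE 1.41, adjusted p = 0.0357), Minpp1 (-7.16, SE 1.76, adjusted p = 0.0437) and Tef (6.21, SE 1.55, adjusted p = 0.0495). Loci that collect ribosomal RNA reads and other small RNA entries had interaction values of Gm25911 (4.77, SE 0.80, adjusted p = 0.00158), Gm23935 (3.44, SE 0.60, adjusted p = 0.00206), Gm15564 (4.63, SE 0.84, adjusted p = 0.00216), Lars2 (3.42, SE 0.63, adjusted p = 0.00216), Yam1 (3.15, SE 0.70, adjusted p = 0.017) and Mir6236 (2.55, SE 0.61, adjusted p = 0.0338). The SCI only libraries come from another range of numbers, so treatment and cohort cannot be told apart.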

How the results depend on the processing

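The count of 330 genes depended on scaling and on the libraries. It was 73 (47 higher, 26 lower) with only the 6 libraries in the fit, 1101 (12 higher, 1089 lower) with library totals and 582 (281 higher, 301 lower) in DESeq2. Leaving out each number gave 209 to 282 (150 to 187 higher, 59 to 99 lower), lowest without 1732 with 209 (150 higher, 59 lower). It was 298 (169 higher, 129 lower) with DESeq2 size factors, 425 (335 higher, 90 lower) with no filter, 341 (243 higher, 98 lower) with at least 5 CPM in 3 libraries and 312 (218 higher, 94 lower) with protein-coding genes. Settings chosen after seeing the data gave 348 (247 higher, 101 lower) with all 5 FT libraries and 232 (169 higher, 63 lower) with at least 10 counts in each fraction. The pairing by number was dropped in the fit with no replicate block, which gave 370 (260 higher, 110 lower), and 0 and 2 interactions against hydrogel CT and SCI only, in place of 1 and 16. Interaction counts were 2 and 8 with DESeq2 size factors, 2 and 8 with protein-coding genes, and 1 to 19 and 14 to 39 leaving out each number, the highest without 1685. Of 88 called genes named by the rule, 78 passed with no replicate block, 41 with 6 libraries, 87 in DESeq2, 65 with all 5 FT libraries and 44 with library totals. Of those still tested, 70 of 84 passed without 1685, 65 of 87 without 1687 and 53 of 79 without 1732. Without each number in turn 40 of the 88 passed, 39 lost the call at least once, and 9 were not always tested. The sign turned with library totals for Aldoc (-0.42), Aqp4 (-0.11), C1qa (-1.25), Cacng4 (-0.20), Ccnd2 (-0.56), Cldn11 (-0.29), Cox6b1 (-0.017), Cspg5 (-0.33), Eif3a (-1.08), Gjc3 (-0.37), Hsp90ab1 (-2.16), Hspa9 (-1.73), Id4 (-0.0055), Kif5b (-0.84), Lamp1 (-2.61), Mapre1 (-0.89), Mcl1 (-0.71), Ndufa13 (-0.21), Ntrk2 (-0.31), Rplp1 (-1.80), Scd1 (-0.39), Scd2 (-0.23), Sdha (-0.36), Slc1a3 (-0.74), Slc2a1 (-2.71), Sox10 (-1.09), Sox9 (-0.44), Sparcl1 (-0.56), Sppl2a (-0.56), Spred1 (-1.79) and Vim (-1.04), where the median of all genes was -2.70. It also turned for Ctsb 0.026 with 6 libraries, 0.36 with no filter, 0.44 without 1685, Lamp1 -0.11 without 1732, Rpl22 0.78 with no replicate block, 0.38 with no filter, 0.65 without 1687, 0.0057 without 1732, 0.54 with all 5 FT libraries and Slc2a1 -0.10 in DESeq2, -0.68 without 1732, -0.52 with all 5 FT libraries. Leaving out each number gave Ctsb -0.61 to 0.44, Lamp1 -0.11 to 0.76, Rpl22 -1.37 to 0.65 and Slc2a1 -0.68 to 1.25. The cause of these changes was not tested. FT depth limits low genes, as 1 read was worth up to 7.22 CPM in the paired FT libraries and 11.9 CPM in FT 1645.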

Other observations

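Values of the 2 FT libraries with no HA partner stand outside the paired comparison. Serpina3n, a protease inhibitor, was 47.5 CPM in FT 1645 and 13.6 CPM in FT 1729. Fth1, ferritin heavy chain, was 878 CPM in FT 1645 and 517 CPM in FT 1729. Nefl, a neurofilament chain, was 131 CPM in FT 1645 and 681 CPM in FT 1729. Snap25, a SNARE protein, was 11.9 CPM in FT 1645, a single read, and 361 CPM in FT 1729.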
